A study of Mus musculus with 22 samples.

Results

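The cytosolic ribosomal protein genes encode the proteins of the ribosome that translates nuclear messages. They were taken by symbol: Rpl or Rps followed by a digit, or Rpsa, Rplp0, Rplp1 and Rplp2, and protein coding. Of 109 symbols of this form, 10 Rps6k kinases, 13 symbols with -ps and Rps19bp1 were left out. This gave 85 of the 21995 genes in the table, 52 of the large subunit and 33 of the small subunit. Whole spinal cords of C57BL/6 mice were sequenced, with 1 RNA-seq library per mouse. The aging comparison set 8 old wild-type males of 18 to 24 months against 8 young wild-type males of 3 to 4 months, all from Roche KAPA HyperPrep libraries. The ALS comparison set 3 symptomatic G93a mice of 5 to 6 months against 3 wild-type controls of that age, prepared with Illumina TruSeq, with 2 females and 1 male in each group. G93a mice have a high-copy transgene of mutant human SOD1 (G93A) and model amyotrophic lateral sclerosis (ALS). All 4 groups were otherwise unmanipulated, and mice with a motor neuron Sirt1 transgene were not analysed here. Kit, balance of sexes and experiment coincide, so changes were tested only within each experiment.

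A ribosome has a small subunit, which holds the message and reads its codons, and a large subunit, which joins the amino acids. Each ribosomal protein is needed in about the same amount, and many cells tune the whole set together. Messages of most ribosomal proteins start with a cytosine followed by a run of pyrimidines, the 5′ terminal oligopyrimidine tract. Through this tract the kinase mTOR and the RNA-binding protein Larp1 control how much of the message is translated. RNA counts, as measured here, do not show translation. In whole tissue, a change in the number of cells of a type and a change in RNA per cell cannot be told apart.

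Runs of pyrimidines lie near the RefSeq start sites of several members. The stretches below span 15 bases before the annotated start (GRCm38.p6) and 15 bases from it. Capitals mark the longest run of C and T that reaches to within 10 bases of the start, with the first taken where runs tie. The first 5 are members of either subunit with such a run, and Rps27 and Rps27rt are a gene and its copy. The base at the annotated start is C in Rps18, Rps27 and Rps27rt, T in Rps24 and G in Rpl13a, Rps26 and Rpl22l1, so in these 4 the letters do not show a tract at the annotated start itself.
Rpl13a: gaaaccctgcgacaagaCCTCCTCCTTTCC
Rps18: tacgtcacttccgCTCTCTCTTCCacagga
Rps24: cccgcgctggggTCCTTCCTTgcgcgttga
Rps26: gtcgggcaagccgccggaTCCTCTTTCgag
Rpl22l1: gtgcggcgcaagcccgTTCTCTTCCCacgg
Rps27: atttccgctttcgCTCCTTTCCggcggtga
Rps27rt: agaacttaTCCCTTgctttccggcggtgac
They lie, in this order, at chr7:45128731-45128760 on the minus strand, chr17:33955651-33955680 (minus), chr14:24490663-24490692 (plus), chr10:128626492-128626521 (minus), chr3:28805493-28805522 (plus), chr3:90213634-90213663 (minus) and chr9:114982725-114982754 (minus). A start window was available for 65 of the 85 members, with 77 windows in all. A run of at least 8 pyrimidines within 10 bases of the start was found in 39% of the member windows and in 14% of all 32851 windows. A C at the start itself, followed by at least 4 pyrimidines, was found in 18.2% of the member windows and in 2.51% of all windows. The letters CCGGAAG, the core bound by ETS family factors, were found on either strand in 35.1% of member windows and in 8.86% of all windows. For CTTTCC these shares were 50.6% and 26.6%, for AAGATGGC, bound by YY1, 10.4% and 2.75%, and for the TATA box letters TATAAA 9.09% and 13.6%. The CTTTCC search and the pyrimidine run can overlap, and a match is a description of the letters only. Rps27rt is a copy of Rps27 on another chromosome, and both windows held the same run of 38 bases, which began at position 2 of the Rps27 message and at position 1 of Rps27rt, counted from each annotated start.

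The young and old libraries held 5078092 to 9358055 counts and the control and G93a libraries 9675610 to 13219797, so that 3 counts stood for 0.227 to 0.591 CPM, counts scaled to library size. The share of all counts on mitochondrially encoded mRNAs was 13.2% in the library called old 6, against 5.24% to 9.18% in the other old libraries. Summed CPM of 13 microglia and macrophage markers ranged from 406 to 455 in young, 720 to 1243 in old, 418 to 505 in control and 1823 to 3669 in G93a libraries. Of these markers 12 were called higher in old mice and 11 in G93a mice. The 12 neuron markers summed to 4023 to 6756 CPM in G93a against 10420 to 11120 in control libraries, and to 7336 to 10100 in old against 8891 to 10320 in young. Oligodendrocyte markers, 8 genes, summed to 24450 to 30580 CPM in young and 24390 to 28940 in old libraries. Their sums were 26840 to 30760 CPM in control and 25920 to 28660 in G93a libraries. Of these 8, 3 were called lower and 1 higher in old mice, and 0 lower and 1 higher in G93a mice. Of all genes 12.9% were lower and 13.5% higher in old mice, and 15.5% and 18.4% in G93a mice. T and B cell markers, 6 genes, summed to at most 2.34 CPM. Sod1 counts were 296 to 335 CPM in G93a and 156 to 168 CPM in control libraries. How far human transgene reads enter the mouse gene was not tested.

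Ribosomal protein genes took a larger median share of all counts in old mice and in G93a mice than in their controls. The share of all counts was 0.851% to 1.04% in the young libraries with a median of 0.912%, and 0.93% to 1.25% in the old libraries with a median of 1.13%. The share in old 6 was the 0.93% and lay within the young range, while the other old libraries began at 1.11%, above every young library. In the control libraries the share was 0.779%, 0.844% and 0.883%, and in the G93a libraries 1.06%, 1.24% and 1.3%, without overlap. The ratio of medians was 1.24 for old against young and 1.46 for G93a against control. Counted over transcripts under 2000 bases and the members, the share was 3.04% to 3.90% in young and 2.86% to 4.42% in old libraries, with overlap. By this count it was 2.99% to 3.30% in control and 3.89% to 4.46% in G93a libraries, without overlap. Large subunit genes took 0.49% to 0.593% in young and 0.539% to 0.727% in old libraries, and small subunit genes 0.361% to 0.442% and 0.391% to 0.52%.

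**Figure D1:**
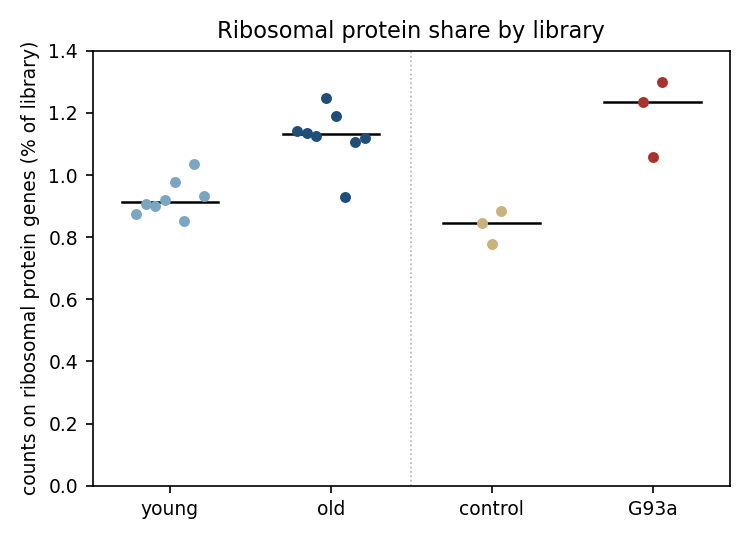
Share of each library's counts on the 85 ribosomal protein genes, in percent, for 8 young, 8 old, 3 control and 3 G93a mice. Points are libraries and lines are group medians; a dotted line separates the experiments, which used different kits. The G93a libraries (1.06% to 1.3%) lie above the controls, and 1 old library lies among the young ones.

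Of the 85 members, 82 had enough counts to be tested in each comparison. The members left out were Rpl10l, a testis-expressed retrogene of Rpl10, which had no count in any library, Rpl39l with at most 6 counts in a library, and Rpl3l, a striated muscle counterpart of Rpl3, with at most 13. Among the others the levels per transcript length spanned a wide range. The highest, as the mean of the 4 group medians, were Rpl13a at 620 FPKM, Rplp1 at 580 FPKM and Rps24 at 503 FPKM, but the order differed between the experiments. Rpl13a led in the aging experiment, with medians of 594 FPKM in young and 782 FPKM in old mice, ahead of Rpl41 (502 and 635 FPKM), Rps24 (467 and 570 FPKM) and, lower, Rplp1 (355 and 459 FPKM). Rplp1 led in the ALS experiment, with 583 FPKM in control and 924 FPKM in G93a mice, ahead of Rpl13a (461 and 646 FPKM) and Rps24 (414 and 561 FPKM). The lowest levels were those of the untested genes, Rpl3l at 0.349 FPKM, Rpl39l at 0.195 FPKM and Rpl10l at 0. The next lowest by this mean were Rpl12, at 3.98 FPKM in young mice, and Rpl5, at 9.62 FPKM in young mice, where Rps27rt lay between them at 8.75 FPKM. Rpl3l, at 0.2 to 0.52 FPKM in the medians of the groups, stood far below its partner Rpl3, at 212 to 371 FPKM.

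With age, 55 of the 82 tested members rose and none fell, by edgeR's quasi-likelihood test with a Benjamini-Hochberg adjusted p under 0.05, and 27 were not called. The number that fell was also 0 at an unadjusted p under 0.05 and by DESeq2. Of all 13647 genes tested, 13.5% were called higher and 12.9% lower. The members' median log2 fold change was 0.28 with a range from -0.12 to 0.83, against a median of -0.003 over all genes. Of the large subunit 31 of 49 rose, and of the small subunit 24 of 33. No member was called with a log2 fold change beyond 1, which 2.18% of all genes were upward and 0.044% downward. In 15 of the 82 every old library lay above every young one, as in 3.67% of all genes, and in 0 every old library lay below, as in 1.66% of all genes. With old 6 left out 63 of 82 rose, and 15.85% of all genes were called higher. With length and GC content taken out of each library by a smooth curve 26 rose, beside 11.6% of all genes. The members' median was then 0.11, and 15 members had a value below 0, against 3 without the curve. The microglia markers above rose in the same libraries; their part in these values was not tested.

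The members with the strongest evidence in aging had separate groups. Rpl13a, a large subunit protein that can leave the ribosome and silence inflammatory messages, ranged from 320 to 365 CPM in young mice with a median of 348, and from 413 to 477 CPM in old mice with a median of 445. Every old library was higher than every young one, and the log2 fold change was 0.38 ± 0.04 (SE, adjusted p = 2.3e-07). Rps2, a small subunit protein near the entry of the message channel, ranged from 83.9 to 100.2 CPM (median 87.8) in young and from 111 to 138 CPM (median 119) in old mice. Its groups did not overlap, with a log2 fold change of 0.45 ± 0.05 (adjusted p = 4.04e-07).

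Rps27, a zinc finger protein of the small subunit, ranged from 93.8 to 125 CPM (median 113) in young and from 129 to 176 CPM (median 155) in old mice. Its log2 fold change was 0.47 ± 0.06 (adjusted p = 2.11e-06). Rplp1, a stalk protein that recruits elongation factors, had medians of 177 and 229 CPM, and Rpl26, which also binds the p53 message, 228 and 281 CPM. Rpl32 had medians of 128 and 168 CPM. In each of these 3 genes the old libraries lay above the young ones without overlap, with log2 fold changes of 0.38, 0.31 and 0.40 and adjusted p-values from 5.35e-06 to 8.2e-06. Rps26, a small subunit protein at the message exit, ranged from 75.2 to 122 CPM (median 105) in young and from 112 to 189 CPM (median 137) in old mice. Its groups overlapped, and the log2 fold change was 0.44 ± 0.10 (adjusted p = 0.00186).

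**Figure D2:**
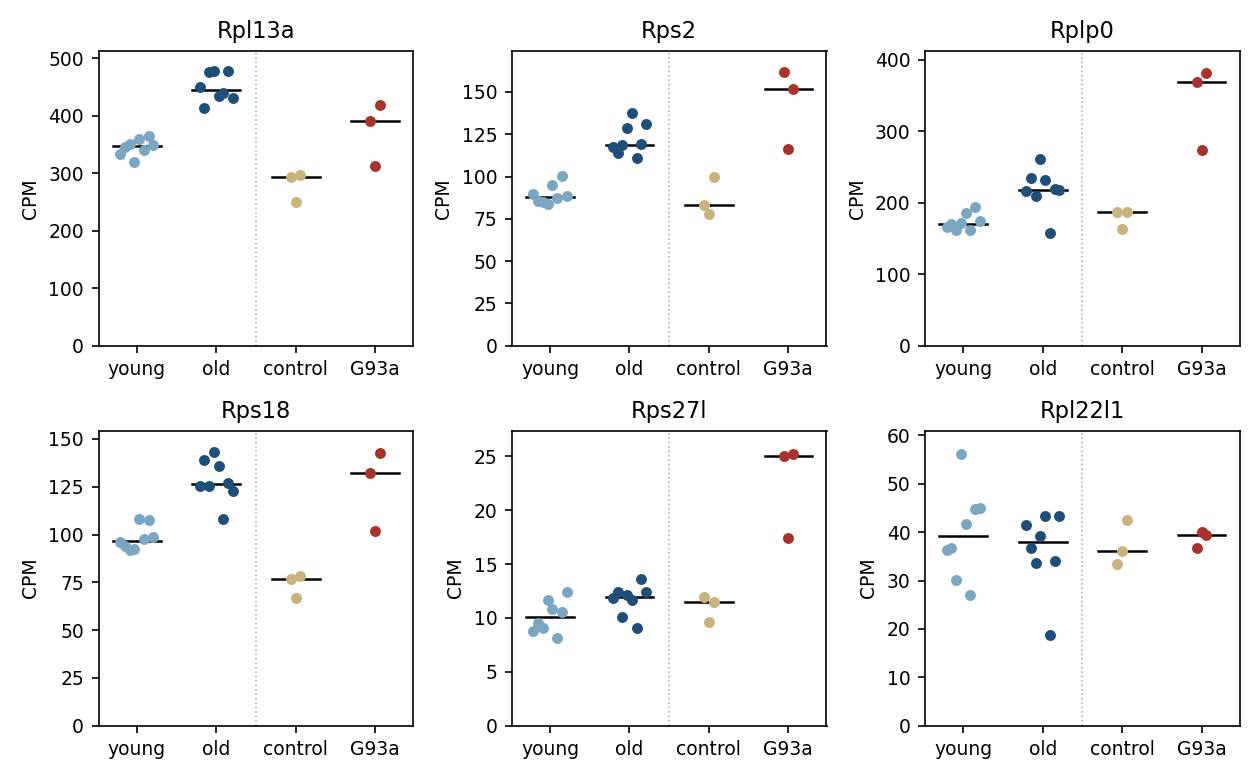
CPM of 6 members in every library, scaled by library size, on axes that start at 0. Points are mice, lines are group medians, and the dotted line separates the experiments. Rpl13a, Rps2 and Rps18 separate the groups in both comparisons, Rplp0 and Rps27l separate only G93a from control, and Rpl22l1 overlaps in both.

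The smallest changes among the called members were those of Rpl7 (log2 fold change 0.14 ± 0.05, adjusted p = 0.0232), Rpl4 (0.18 ± 0.04, adjusted p = 0.0018), Rpl23a (0.20 ± 0.06, adjusted p = 0.0232), Rps23 (0.21 ± 0.07, adjusted p = 0.0324) and Rps15a (0.22 ± 0.04, adjusted p = 0.000134). Rpl4 and Rps15a had separate groups all the same. Rpl4 ranged from 370 to 419 CPM in young and from 420 to 491 CPM in old mice. Rpl23a, which lies at the exit of the nascent chain, ranged from 175 to 241 CPM in young and from 211 to 269 CPM in old mice, with overlap.

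In G93a mice, 65 of the 82 tested members rose and none fell, and 17 were not called. None fell by DESeq2 or at an unadjusted p under 0.05 either, since every fitted change was above 0. Of all 14386 genes tested, 18.4% were called higher and 15.5% lower. The median log2 fold change of the members was 0.49, with a range from 0.05 to 1.04, against 0.003 over all genes. Of the large subunit 36 of 49 rose, and of the small subunit 29 of 33. Called with a log2 fold change beyond 1 was 1 member, against 8.5% of all genes upward and 1.2% downward. In 73 of the 82 every G93a library lay above every control, as in 25.7% of all genes, and in 0 every G93a library lay below, as in 24.7%. The library called G93a 2 was the lowest of its group in 77 of the 82 members, and control 2 the lowest of its group in 61. The number that rose was 43 without control 1, 34 without control 2, 35 without G93a 3 and 74 without G93a 2. The share of all genes called higher moved the same way, at 13.7%, 12.1%, 11.3% and 23.8% in these fits. Each such fit has 5 libraries.

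The member with the smallest adjusted p-value was Rplp0, which holds the stalk of the large subunit. It had 187, 163 and 188 CPM in the controls and 370, 273 and 382 CPM in the G93a mice. The groups were well apart, with a log2 fold change of 0.93 ± 0.14 (adjusted p = 0.00174). Rps23, at the decoding centre of the small subunit, had 36.6, 41.4 and 34.2 CPM in the controls and 65.1, 55.7 and 69.6 CPM in the G93a mice. Its log2 fold change was 0.76 ± 0.11 (adjusted p = 0.00196).

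Rps26 had 65.1, 65.7 and 56.1 CPM in the controls and 102, 87.5 and 112 CPM in the G93a mice, a log2 fold change of 0.69 ± 0.11 (adjusted p = 0.00287). Rps4x, an X-linked small subunit gene, had 198, 190 and 212 CPM in the controls and 338, 271 and 330 CPM in the G93a mice, a log2 fold change of 0.65 ± 0.11 (adjusted p = 0.00331). In both genes, as in Rplp0 and Rps23, G93a 2 was the lowest of the G93a libraries and still above every control. Rpl23 (0.57 ± 0.10, adjusted p = 0.00358) and Rps18 (0.77 ± 0.13, adjusted p = 0.00358) behaved alike in this respect. Rps18, which sits in the head of the small subunit, had 76.6, 67.0 and 78.2 CPM in the controls and 132, 102 and 143 CPM in the G93a mice.

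Rps27l, a paralog of Rps27 known as a target of p53, had the largest change. It had 11.95, 9.59 and 11.4 CPM in the controls and 25.1, 17.4 and 25.2 CPM in the G93a mice. The log2 fold change was 1.04 ± 0.17 (adjusted p = 0.00328), the one member beyond 1. Rpl39, a short protein of the exit tunnel, had 20.9, 21.1 and 24.6 CPM against 52.2, 30.5 and 42.8 CPM (0.92 ± 0.18, adjusted p = 0.00661). Rpl24, which bridges to the small subunit, had 66.5, 60.4 and 60.9 CPM against 109, 83.5 and 133 CPM (0.79 ± 0.15, adjusted p = 0.0057). Here too the G93a libraries differed widely among themselves without reaching the controls. At the other end of the called members stood Rps15a (0.26), Rpl15 (0.28), Rpl8 (0.31), Rpl35a (0.31) and Rpl14 (0.33), with adjusted p-values from 0.0312 to 0.0469. Each of these 5 lost its call when some single library was left out.

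Of the tested members, 48 rose in both comparisons, 17 in G93a alone, 7 in aging alone and 10 in neither. Of the 13610 genes tested in both comparisons, 8.69% rose in both, 8.66% in G93a alone, 4.81% in aging alone and 77.8% in neither. The comparisons share no mice, but differ in kit, sex and group size. Whether a change differed between them was tested as an interaction when the 22 libraries were fitted together with edgeR, and 11.6% of 14502 genes were called higher and 14.2% lower in G93a. Of the members 7 (8.54%) rose more in G93a, a share below the 11.6% of all genes. None of the members rose less, also at an unadjusted p under 0.05. The 5 with the smallest adjusted p-values were Rps27l (difference of log2 fold changes 0.80 ± 0.19, adjusted p = 0.0027), Rplp0 (0.57 ± 0.15, adjusted p = 0.00537), Rps23 (0.53 ± 0.14, adjusted p = 0.00544), Rpl39 (0.62 ± 0.17, adjusted p = 0.00725) and Rpl7 (0.31 ± 0.09, adjusted p = 0.017). The others were Rpl24 and Rps18. For the other 75 tested members a difference was not shown, and 48 of 82 rising in both is not a test of likeness. The 7 became 4 without control 2, 3 without G93a 1, 4 without G93a 3 and 16 without G93a 2. The share of all genes called for the difference was not counted in these fits.

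**Figure D3:**
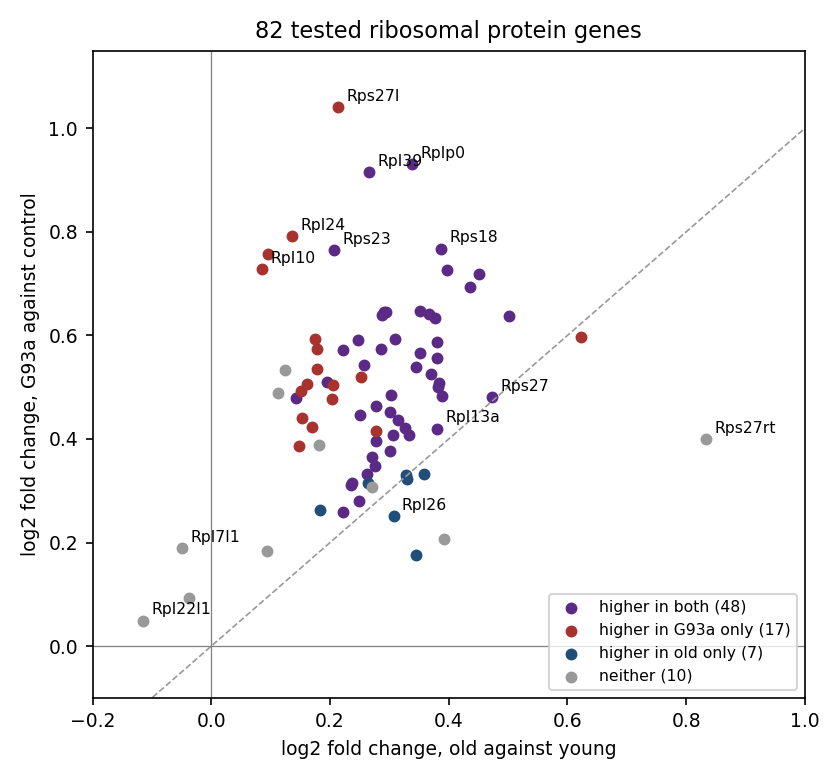
Log2 fold change of each of the 82 tested members in aging (horizontal) and in G93a against control (vertical), coloured by which comparison called it at an adjusted p under 0.05. The dashed line marks equal change. Points lie above 0 on the vertical axis throughout, and Rps27l, Rplp0 and Rpl39 stand far above the line.

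The paralogs within the family were not all called where their partners were. Rpl22l1, which can take the place of Rpl22, ranged from 26.96 to 56.2 CPM (median 39.2) in young and from 18.8 to 43.4 CPM (median 37.9) in old mice, and had medians of 36.1 CPM in control and 39.4 CPM in G93a mice. Its log2 fold changes were -0.12 ± 0.14 in aging (adjusted p = 0.585) and 0.05 ± 0.11 in G93a (adjusted p = 0.76). Its partner Rpl22 had medians of 105 and 131 CPM in aging and 105 and 148 CPM in the ALS groups, and rose in both, by 0.30 ± 0.06 (adjusted p = 0.00116) and 0.45 ± 0.10 (adjusted p = 0.00905). The difference between partners was not tested. Rpl7l1 had log2 fold changes of -0.05 and 0.19, neither of them called, against 0.14 and 0.48 for Rpl7, both called.

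Rpl36al, an autosomal retrogene, had 0.09 and 0.18, neither of them called, while Rpl36a, its X-linked source gene, rose by 0.39 ± 0.07 (adjusted p = 0.000313) and 0.48 ± 0.10 (adjusted p = 0.00755). The X-linked members as a set, Rpl10, Rpl36a, Rpl39 and Rps4x, rose in 3 of 4 cases in aging and 4 of 4 in G93a. Of all tested members 67.1% and 79.3% rose. The median log2 fold changes of these 4 genes were 0.28 in aging and 0.69 in G93a, against 0.28 and 0.49 for all tested members. Whether X-linked members differ from the others was not tested, and 4 genes are too few to tell. Rps27l had 0.21 ± 0.10 in aging (adjusted p = 0.131), with 8.11 to 12.4 CPM in young and 9.09 to 13.6 CPM in old mice, so the gene with the largest change in G93a was not called in aging. Rps27rt had 0.39 to 9.74 CPM in young and 3.09 to 16.5 CPM in old mice, and the fitted values of 0.83 ± 0.37 (adjusted p = 0.0986) and 0.40 ± 0.21 (adjusted p = 0.173) were not called. Its coding sequence is at least 95% identical to that of Rps27 over at least 90% of its length, so many reads of the pair may not be told apart there.

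Ribosomal protein genes have many copies in the mouse genome, and this bears on how fragments were divided among genes. Of the 85 members, 79 have at least 1 other annotated gene with at least 95% identity over at least 90% of the coding sequence. In all there are 580 such genes, 551 of them pseudogenes, and Rpl21 has the most, with 56. The table holds 36 of the 580. RSEM shares fragments among alike transcripts by estimation, and for 5 members, beside Rps27rt, which stood below Rps27, the median of a copy was above that of the member in all 4 groups. Rps12 had medians of 7.21 CPM in young, 8.94 in old, 9.29 in control and 10.8 in G93a mice, while Rps12-ps3 had 19.6, 30.7, 92.7 and 159 CPM. Rpl27 had 6.2, 8.61, 5.07 and 8.04 CPM, while Rpl27-ps3 had 17.3, 18.3, 50.4 and 69.3 CPM. Rpl35 had 23, 27.1, 27.3 and 43.9 CPM, and Gm2000 101, 133, 76.2 and 120 CPM. Rpl10, a gene of the large subunit, had 14.9, 14.9, 83.9 and 156 CPM, and Rpl10-ps3 177, 237, 94.6 and 161 CPM. The fifth was Rpl21, with 37.9, 37.4, 13.7 and 23.7 CPM, beside BC004004 with 51.4, 58.4, 48.4 and 49.5 CPM.

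In a fit added after these values were seen, the counts of 31 copies were summed with their members. It added calls for Rpl10, Rpl35 and Rps12 in aging and for Rpl9, Rps7 and Rps12 in G93a mice, and ended none. Some G93a changes became smaller with the copies. Rpl21 went from 0.76 to 0.30, Rps23 from 0.76 to 0.61 and Rpl9 from 0.53 to 0.38. The difference between comparisons was not fitted with summed copies. Rpl10 alone had a log2 fold change of 0.09 ± 0.20 in aging (adjusted p = 0.801). Rpl10 with Rpl10-ps3 ranged from 172 to 213 CPM (median 189) in young and from 222 to 265 CPM (median 256) in old mice, without overlap, and rose by 0.40 ± 0.05 (adjusted p = 3.01e-06). In G93a mice the pair rose by 0.73 ± 0.13 (adjusted p = 0.00383). Rps12 alone was called in neither comparison, with 0.39 ± 0.18 (adjusted p = 0.117) and 0.21 ± 0.14 (adjusted p = 0.3). Summed with Rps12-ps3 it rose in both, by 0.45 ± 0.11 (adjusted p = 0.00327) and 0.65 ± 0.15 (adjusted p = 0.0124). Rpl35 with its copies rose in aging by 0.39 ± 0.06 (adjusted p = 5.42e-05), where Rpl35 alone had 0.18 ± 0.18 (adjusted p = 0.502). In this fit 58 of 82 members rose in aging and 68 of 82 in G93a, again with none lower. Of all genes 13.5% and 18.4% were called higher in it.

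**Figure D4:**
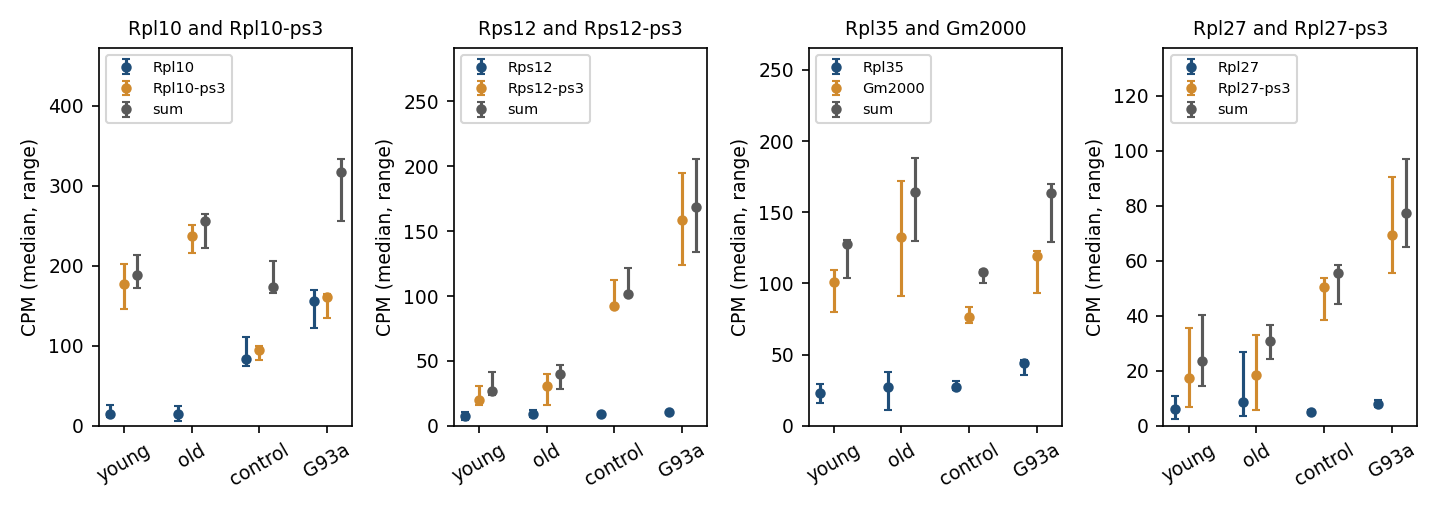
CPM of 4 members, of the near-identical copy that drew most fragments, and of the sum of the member and all its copies in the table. Dots are group medians and bars run from the lowest to the highest library. Rpl10 lies far below its copy in young and old mice and close to it in control and G93a mice, and the medians of the sums are higher in old than in young and in G93a than in control mice for all 4.

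Ribosomal protein messages are short, and short transcripts as a class were higher in both comparisons. Among other genes, the median log2 fold change with age was 0.11 for transcripts under 600 bases, 0.14 for 600 to 1000 bases and 0.09 for 1000 to 2000 bases, and it was -0.10 for those over 4000 bases. In the same 3 classes the members had medians of 0.33 (23 genes), 0.26 (35 genes) and 0.27 (20 genes). In G93a mice the other genes had medians of 0.05, 0.13 and 0.09 in these classes and -0.10 over 4000 bases, and the members 0.48, 0.53 and 0.46. In each of these classes the lower quartile of the members was above the median of the other genes of the class. With the curve for length and GC content 51 of 82 members rose in G93a (median 0.34), beside the 26 in aging. With the curve fitted on other genes only, 29 rose in aging (median 0.12) and 57 in G93a (median 0.38), and none fell in any of these fits. Of all genes, 18.9% were called higher in G93a under the first curve. Under the second, 11.5% were called higher in aging and 18.9% in G93a.

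**Figure D5:**
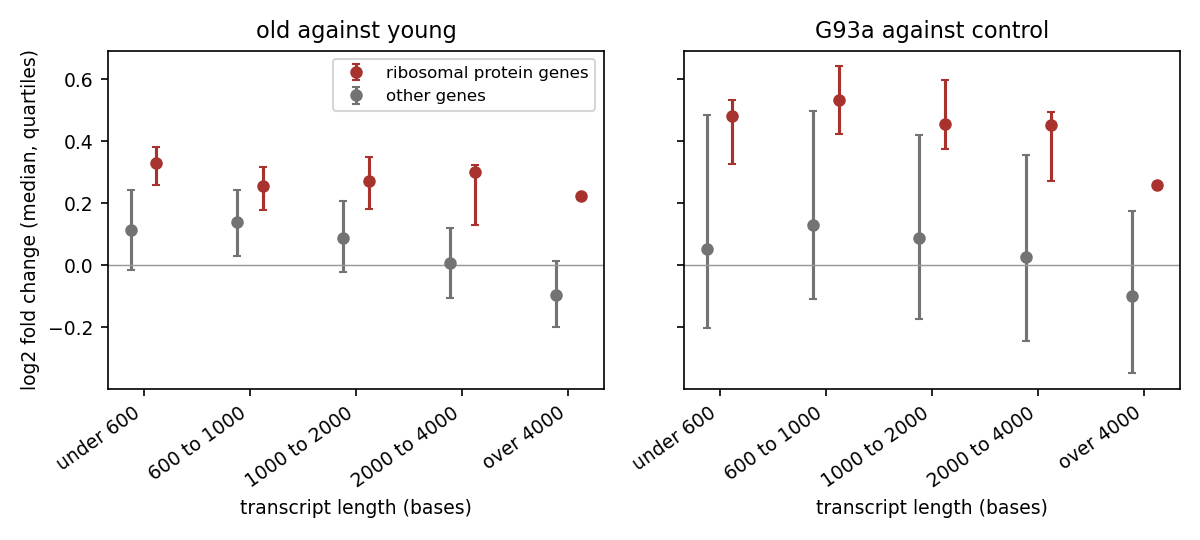
Log2 fold change by transcript length class in aging (left) and in G93a against control (right). Dots are medians and bars the quartiles of the ribosomal protein genes and of the other tested genes, with 3 members at 2000 to 4000 bases and 1 over 4000. Medians of other genes are above 0 in the 3 short classes and below 0 over 4000 bases, and the members' medians lie above them in each class. Lengths are those of annotated transcripts. The member over 4000 bases is Rps15a, with an annotated length of 5130 bases and a coding sequence of 390 bases.

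The 24 members called in aging under all 11 other ways of processing and with each of the 16 libraries left out included Rpl13a, Rps2, Rps27, Rplp1, Rpl26, Rpl32, Rps26, Rplp0 and Rps18. Rpl7, Rpl4, Rpl23a and Rps23 lost their call in aging under the length and GC curve, with log2 fold changes of 0.06, 0.10, 0.03 and 0.10. In G93a mice 32 of the 65 were called throughout, among them Rplp0, Rps23, Rps26, Rps27l, Rps4x, Rpl23, Rps18, Rpl39 and Rpl24. Rpl13a lost its call in G93a mice under the curve, at 0.25 against 0.42 ± 0.13 (adjusted p = 0.0319).

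Other genes of the translation machinery were counted in the same fits, and their counts can be read against the 13.5% higher and 12.9% lower of all genes in aging and the 18.4% and 15.5% in G93a mice. Among ribosomal proteins that the naming rule misses, Fau and the small subunit scaffold Rack1 rose in aging (0.59 and 0.34). In G93a mice Rack1 rose by 0.77 ± 0.12 (adjusted p = 0.00206), from 114 to 129 CPM in the controls to 174 to 226 CPM, and Fau was not called (0.31, adjusted p = 0.123). The proteins of the mitochondrial ribosome, which translates the messages of mitochondrial DNA, rose in 5 of 78 cases (6.41%) with none lower in aging (median 0.09). In G93a mice 4 rose (5.13%) and 1 fell (1.28%, median -0.002). Mrps6 was the most changed of them, from 21.7 to 28.5 CPM in controls to 46.0 to 69.2 CPM in G93a mice (1.28 ± 0.17, adjusted p = 0.00112), followed by Mrpl33 (0.65) and Mrpl24 (0.44). In aging the leading ones were Mrps18b (0.28), Mrpl16 (0.28) and Mrps6 (0.25).

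Ribosome biogenesis genes, which make ribosomal RNA and assemble the subunits, were mostly not called (38 of 47 in aging and 43 of 47 in G93a mice). In aging 4 rose (8.51%) and 5 fell (10.6%, median 0.02), with Nvl at -0.32, Nop53 at 0.25 and Utp20 at -0.27. In G93a mice 2 rose and 2 fell (4.26% each, median 0), with Rrp12 at -0.64, Wdr12 at -0.40 and Tcof1 at 0.33. Of 14 genes of growth control, 2 rose and 2 fell in aging (14.3% each) and 1 rose and 1 fell in G93a mice (7.14% each). Myc, a transcription factor that drives ribosome production, rose from 2.52 to 4.2 CPM in young to 4.62 to 7.35 CPM in old mice (0.86 ± 0.14, adjusted p = 8.46e-05) and from 2.76 to 5.03 CPM in control to 8.15 to 15.3 CPM in G93a mice (1.70 ± 0.29, adjusted p = 0.00371). Larp1 fell by 0.17 on the log2 scale in aging and Akt1 rose by 0.12. Mtor fell by 0.43 in G93a mice (adjusted p = 0.0137), and Rictor had -0.22 (adjusted p = 0.0764).

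Of 38 initiation factors, 16 rose (42.1%) and 6 fell (15.8%) in aging (median 0.07). In G93a mice 7 rose (18.4%, the share of all genes) and 3 fell (7.89%, median 0.12). Pabpc1, the poly(A)-binding protein, whose message also carries the pyrimidine tract, had 138 to 169 CPM in young and 189 to 227 CPM in old mice (0.43 ± 0.05, adjusted p = 6.62e-07), and 125 to 137 CPM in control and 199 to 319 CPM in G93a mice (1.004 ± 0.158, adjusted p = 0.00246). Eif4ebp1, which holds back initiation when mTOR is inactive, had 0.34 to 1.44 CPM in young and 0.92 to 3.93 CPM in old mice (1.75 ± 0.28, adjusted p = 5.67e-05) and 0.93 to 1.61 CPM in control and 5.23 to 12.4 CPM in G93a mice (2.75 ± 0.38, adjusted p = 0.00129). Eif3f rose in aging (0.33) and Eif4a1 in G93a mice (0.81). Of 13 elongation and release factors, 8 rose (61.5%) and 2 fell (15.4%) in aging, and 6 rose (46.2%) and 1 fell (7.69%) in G93a mice. Eef1a1, the elongation factor that brings transfer RNA in most cells, rose from 1627 to 1797 CPM in young to 1981 to 2258 CPM in old mice (0.32 ± 0.04, adjusted p = 5.88e-07) and by 0.79 ± 0.13 (adjusted p = 0.00293) in G93a mice. Eef1a2, the form used by neurons and muscle, fell by 0.68 on the log2 scale in G93a mice (adjusted p = 0.00737), beside the lower sums of neuron markers given above. Btf3 (0.23) and Eef1g (0.21) rose in aging, and Tpt1 (0.58) in G93a mice.

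Within groups the members' spread followed that of other genes, with a median SD of log2 CPM of 0.15 in young, 0.18 in old, 0.13 in control and 0.19 in G93a libraries, against 0.14, 0.17, 0.12 and 0.16 over all genes tested in both comparisons. Set against the mean of the matching controls, the members' median log2 difference was 0.14 in old 6 and 0.27 to 0.42 in the other old libraries. It was 0.58 in G93a 1 and G93a 3 and 0.29 in G93a 2. The summed microglia markers were lowest in the same libraries, at 720 CPM in old 6 and 1823 CPM in G93a 2, against 998 to 1243 and 2836 to 3669 CPM in the others of their groups. Whether the markers and the members are linked was not tested. Astrocyte markers, 8 genes, summed to 13100 to 19830 CPM in G93a and 7476 to 8125 CPM in control libraries, and to 9041 to 9883 in old and 8011 to 8759 in young.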

How the data were processed

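Spinal cord RNA was extracted with TRIzol and a Qiagen miniprep kit. Per the labels and the study's methods, the authors aligned reads to mm10 with STAR, used SAMtools 1.3, and estimated gene levels with RSEM on an Ensembl annotation. For 21995 genes and 22 libraries the authors deposited expected counts from RSEM, not normalized, and a table of log2 values, log2(FPKM + 1). Whether strand was used in counting is not given in the sources used here. Members and gene lists were chosen with earlier results of these data known.

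Expected counts were rounded to integers. Each comparison was fitted alone in edgeR 4.0.16 (R 4.3.3): filterByExpr (count at least 10, total at least 15), TMM scaling and the quasi-likelihood test without covariates, with p-values adjusted over all tested genes by Benjamini-Hochberg. Standard errors come from that fit. CPM is scaled by TMM library sizes, and FPKM served for comparing genes. Transcript lengths and gene types are from GENCODE M21, which holds 21919 of the genes. The p-values measure the spread between these libraries. No 2 libraries of a group agreed within sampling noise, with a chi-square per degree of freedom of at least 2.36. Depth and the CPM of 3 counts are given in the report and cover counting error only.

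Named members are, per comparison, the 8 with the smallest adjusted p-values and the 5 largest and 5 smallest called changes, the 5 with the smallest adjusted p-values for the difference, paralogs with their partners, untested members, and the 3 highest and 3 lowest levels. Some genes that this rule names are not reported here. At most 3 genes per other list and comparison are named. Rpl9, Rpl12, Rpl21, Rpl27, Rpl35, Rpl41, Rpl5, Rps7, Rps12 and the copies were named after their values were seen. Copies were found with BLAST 2.17.0+ among GENCODE transcripts. The edgeR fits were also run on simulated counts with the same spread between libraries for every gene and no effect of length or GC content. Such counts cannot test how well the curve removes a length effect. Alternatives were DESeq2 1.42.0, RLE factors, TMM without members or from transcripts under 2000 bases, other filters, length and GC offsets by loess with a span of 0.3, one fit of all libraries, limma 3.58.1 on the log2 values, and each library left out. For the difference they were DESeq2, RLE factors, no filter, length and GC offsets, and each control or G93a library left out.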

Additional observations from a re-analysis of the deposited data

Results flagged for a closer look

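In the groups of 8, a library was looked for that stood apart from the other 7 by Dixon's criterion, in the CPM of named members and in library shares. Of 74 such groups 14 held one, where chance gives about 1 in 20. Those of Rpl39l rest on fewer than 3 counts.

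Old 6 stood apart in the share of counts on members (0.93% against 1.11% to 1.25%) and in their share of summed FPKM (2.95% against 3.69% to 4.30%). It was also low in Rpl22l1 (18.8 against 33.6 to 43.4 CPM) and high in Rpl14 (154 against 113 to 131 CPM) and Rps27rt (16.5 against 3.09 to 9.37 CPM). Rpl39l was flagged at 0.308 against 0 to 0.136 CPM, below the 0.425 CPM that 3 counts stood for in old 6. The share of mitochondrially encoded mRNA in old 6 was 13.2%.

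Young 4, the young library with the fewest counts, was low in Rpl32 (99.99 against 125 to 145 CPM), Rps26 (75.2 against 102 to 122 CPM) and Rps24 (205 against 243 to 273 CPM), and high in Rpl10 (26.6 against 10.6 to 16.7 CPM).

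Elsewhere, Rpl39l was at 0.227 CPM in young 2, where 3 counts stood for 0.34 CPM, and at 0 in the other young libraries. Rpl23 was at 112 CPM in young 7 against 68.2 to 85.7 CPM. Rpl36al was at 34.4 CPM in young 1 against 39.1 to 43.0 CPM, and at 53.1 CPM in old 7 against 37.9 to 44.9 CPM.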

How the results depend on the processing

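Under each alternative the members called lower stayed at 0 in both comparisons and the medians of the members stayed above 0. In aging, length and GC offsets gave 26 members higher, or 29 with the curve fitted on other genes only, and a median log2 fold change of 0.11 or 0.12, where the main values were 55 and 0.28. TMM from transcripts under 2000 bases gave 39 and a median of 0.17, and moved the median of all genes by -0.11, so that relative to all genes the members stood 0.28 higher. With that TMM 7.69% of all genes were called higher. Adding a log2 fold change beyond 1 left 0 in aging and 1 in G93a mice. The difference between comparisons was called in 13 members under length and GC offsets. Counted over transcripts under 2000 bases, the ratio of member shares in aging was 1.14. Leaving out each library in turn gave 48 to 63 members higher in aging (median 0.26 to 0.30), beside 11.92% to 15.85% of all genes. In G93a mice it gave 34 to 74 (median 0.42 to 0.58), beside 11.27% to 23.83% of all genes. For the difference only control and G93a libraries were left out in turn, which gave 3 to 16 members. The share of all genes called for the difference was not counted in any alternative fit. The offsets, the other TMM and both curve fits rest on transcript length by construction, and the cause of the other changes was not tested.

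Under the curves fitted on all and on other genes, 15 and 13 of the 82 members had a value below 0 in aging, against 3, and 2 and 1 in G93a mice, against 0. Among the members named, the signs of 5 uncalled values changed. In aging, Rpl24 became -0.0343 and -0.0191 under the curves fitted on all and on other genes, and Rpl36al -0.0627 and -0.0514 under these and -0.0124 with TMM from short transcripts. Rpl10 became -0.0596 and -0.0497 under the curves, -0.0242 with that TMM, and -0.0556 with limma on log2(FPKM + 1). With a library left out it ranged from -0.0446 (without old 4) to 0.208 (without young 4), and Rpl7l1 from -0.0916 (without old 4) to 6e-04 (without old 8). In G93a mice, Rpl22l1 became -0.0843 and -0.0352 under the curves and -0.0604 with TMM from short transcripts, and ranged from -0.0263 (without control 1) to 0.15 (without control 3). For single named members, 60 of the other values in aging and 64 in G93a mice lost a call, mostly with a library left out or length removed, and 2 and 6 gained one.

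No paired analysis was possible because the table's columns carry no replicate numbers. With 3 libraries a group, a G93a change near 0.3 on the log2 scale lay at the edge of what was called. The curves for length also take out change that members share with other short transcripts.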

Other observations

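The levels of a few members differed widely between the wild-type libraries of the experiments, in which kit, age, sex and experiment cannot be told apart. Of 82 tested members, 4 had a median CPM more than 2-fold higher in the control than in the young libraries, and 1 more than 2-fold lower. The share of all genes beyond these limits was not counted. Rpl10 had 14.9 CPM in young and 83.9 CPM in control libraries, Rps27rt 3.17 and 10.5 CPM, Rps13 15.3 and 41.8 CPM, Rpl5 9.96 and 20.5 CPM, and Rpl21 37.9 and 13.7 CPM. The genes were chosen after their values were seen. Rpl10, Rps27rt and Rpl21 are among the members with a near-identical copy in the table, and the sum of Rpl10 and Rpl10-ps3 was 189 CPM in young and 174 CPM in control libraries. Some other sums still differed between these groups. Rpl21 with BC004004 had medians of 88.2 and 61.7 CPM, Rpl27 with Rpl27-ps3 23.6 and 55.4 CPM, and Rps12 with Rps12-ps3 27.1 and 101 CPM. The part of the copies in the level gaps was not tested.

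For Rps15a the units differed in size of change. Its median went from 118 CPM in control to 147 CPM in G93a libraries, and from 124 to 229 FPKM.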
